A study of Sus scrofa with 48 samples.

Results

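In longissimus muscle, 10 genes of insulin signalling and of the mTOR pathway were described, namely INSR, IRS1, IRS2, PIK3R1, AKT1, AKT2, SLC2A4, MTOR, RPS6KB1 and TSC2. Their probes were found on the array by the gene name or by the symbol given in brackets in the probe description, which gave 20 probes for 9 of the 10 genes. Of these, 19 probes of 8 genes passed the background filter of the array (well above background on 12 or more of 48 arrays), among 42125 such probes with 29879 names on the whole array. The single TSC2 probe was well above background on 2 of 48 arrays and was left out. IRS2 had no probe under this rule. The 48 pigs were Large White barrows of lines selected for low or high residual feed intake (RFI), the part of feed intake that growth and maintenance do not account for. They had free access to feed, which was high in fat and fiber (HF) or low in fat and fiber (LF). This made 4 groups of 12 pigs: low RFI on HF, high RFI on HF, low RFI on LF and high RFI on LF. Fat and fiber changed together between the diets, and each line was 1 selected population, so that neither fat and fiber nor selection and other differences between the populations can be told apart. Each pig had its own one-colour array.

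Insulin binds its receptor INSR, which phosphorylates the adaptors IRS1 and IRS2. These recruit phosphoinositide 3-kinase, whose regulatory subunit is PIK3R1, and the lipid made by this kinase activates AKT1 and AKT2. In skeletal muscle, AKT sends vesicles with the glucose transporter GLUT4, encoded by SLC2A4, to the cell surface. AKT also inhibits TSC2, a brake on the MTOR kinase, and MTOR in turn activates the S6 kinase RPS6KB1, which promotes protein synthesis. Most of these steps are regulated by phosphorylation, which an array of transcripts does not measure.

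The values below are log2 signals minus the mean of each array, so that a value of 0 is the mean of the tested probes. Arrays had a median processed signal of 52.8 to 107.9 and no saturated spot, and between 59.2% and 74.2% of their probes exceeded background. The arrays lay on 6 slides, each with 2 arrays of every group. In 1 high RFI pig on the HF diet (replicate 10), the median correlation with the other arrays was 0.960, and the next lowest of the other pigs was 0.9796. Results that changed without this pig are given both ways. Replicate numbers here count the pigs of a group in the order of the series and are not those of the labels. All 12 markers of muscle fibres, such as the actin ACTA1 and the creatine kinase CKM, were well above background on all 48 arrays. Because muscle was analysed as a whole, fewer cells of a type and less RNA per cell cannot be told apart.

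The oligonucleotides behind the genes with the largest line differences are shown here because the probes of a gene did not always give the same difference. Each holds 60 bases. Capitals mark the longest identical stretch, 15 bases, of the lead probe of SLC2A4 (A_72_P440846) and its dimmest probe (A_72_P413673). The bases just before this stretch are also alike in both probes, with mismatches at scattered positions. The lead probe of a gene is its probe with the highest mean signal.
INSR O11193: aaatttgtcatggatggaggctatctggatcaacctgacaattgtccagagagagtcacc
PIK3R1 O12153: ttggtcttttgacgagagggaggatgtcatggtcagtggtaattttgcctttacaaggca
SLC2A4 A_72_P440846: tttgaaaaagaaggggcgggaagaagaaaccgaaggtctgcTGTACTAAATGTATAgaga
SLC2A4 A_72_P413673: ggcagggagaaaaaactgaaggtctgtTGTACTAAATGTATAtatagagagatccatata
SLC2A4 A_72_P448551: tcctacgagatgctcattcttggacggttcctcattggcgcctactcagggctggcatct
RPS6KB1 A_72_P442308: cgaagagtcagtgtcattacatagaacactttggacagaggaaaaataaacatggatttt
RPS6KB1 O10272: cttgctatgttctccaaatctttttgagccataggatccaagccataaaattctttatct
RPS6KB1 A_72_P292609: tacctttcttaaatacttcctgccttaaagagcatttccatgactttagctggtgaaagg
RPS6KB1 A_72_P180541: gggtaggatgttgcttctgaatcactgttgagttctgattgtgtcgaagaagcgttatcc

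A further SLC2A4 probe, O9845, has the same sequence as A_72_P448551, so the 19 probes hold 18 distinct sequences. Outside this pair, no probe of the array shared a run of 20 bases with a kept probe of these genes on either strand. The files give no position of the probes in the genome. For 7 of the 19 probes, the accession in the files was paired with the same symbol in the pig RefSeq table (Sscrofa11.1), and the other probes were named from the array files alone. Whether each probe lies on the sense strand of its transcript was not tested. This is unsettled above all for the AKT2 probe O11506 and the RPS6KB1 probes O10272 and A_72_P180541, which may read the opposite strand, so their values are those of the probes and may not be the level of the mRNA.

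Between the lines, RPS6KB1 was lower in high RFI pigs with 2 of its 4 probes. The 4 brighter SLC2A4 probes were not called. Of the 19 probes, 3 were called at an adjusted p under 0.05 (15.8%), against 16.4% of all tested probes, so the share of called probes was near that of the array. The called probes were 2 RPS6KB1 probes, lower in high RFI pigs, and the dimmest SLC2A4 probe, higher in high RFI pigs, which was well above background on 14 of 48 arrays, most of them of the high RFI line. Of all tested probes, 9.85% were called lower and 6.57% were called higher. The median absolute line difference was 0.095 over the 19 probes and 0.10 over all tested probes.

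**Figure D1:**
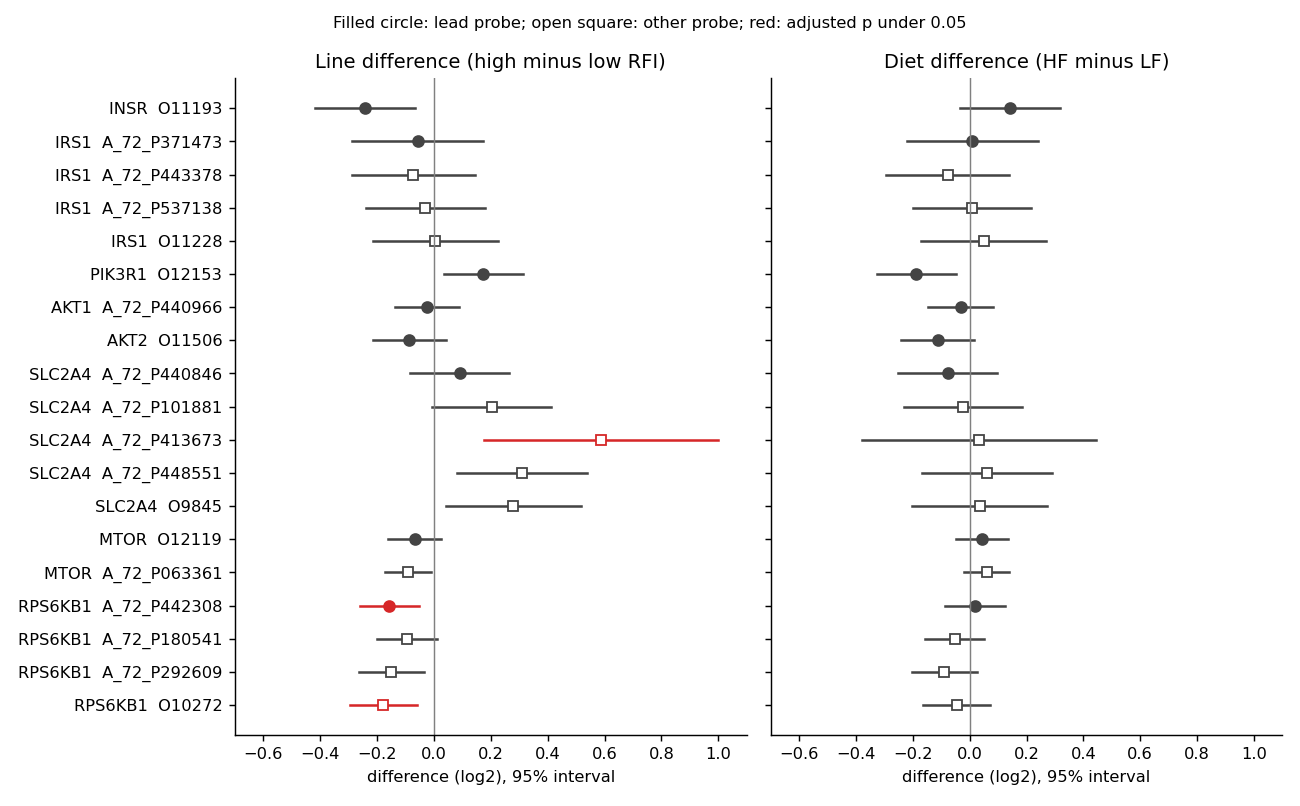
Difference between the lines (left, high minus low RFI) and between the diets (right, HF minus LF) on the log2 scale for each of the 19 probes, with 95% intervals from limma; filled circles are lead probes, open squares other probes, and red marks an adjusted p under 0.05. All 4 RPS6KB1 probes lie below 0 and all 5 SLC2A4 probes above 0 for the line, and no probe is red for the diet.

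At the receptor, the INSR signal in low RFI pigs ranged from -2.73 to -1.42, with a median of -2.09. In high RFI pigs it ranged from -2.86 to -1.70, with a median of -2.33. The lines overlapped, and 18 of 24 high RFI pigs lay below the mean of the low RFI line. The line difference was -0.24 (SE 0.088, 24 pigs per line) with an adjusted p of 0.0505, just outside the threshold. On the HF diet the difference between high and low RFI pigs was -0.37 (SE 0.12, adjusted p = 0.0612) and it was negative within all 6 slides, whereas on the LF diet it was -0.12 (SE 0.12, adjusted p = 0.693). The interaction of line and diet for INSR was -0.25 (SE 0.18, unadjusted p = 0.163), so a difference between the diets was not shown. INSR passed the threshold with quantile normalization (adjusted p = 0.0450), and also without replicate 10 of the high RFI group fed HF, with a line difference of -0.27 (adjusted p = 0.0230) and a difference on the HF diet of -0.43 (adjusted p = 0.0299). Over the alternatives with a test, its line difference ranged from -0.27 to -0.13 and its adjusted p from 0.0230 to 0.0843.

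For the adaptor IRS1, the lines overlapped over most of their range. The lead probe (A_72_P371473) ranged from 4.38 to 5.73 in low RFI pigs, with a median of 5.23, and from 4.35 to 6.14 in high RFI pigs, with a median of 5.10. Its line difference was -0.057, with a 95% interval from -0.29 to 0.17 (adjusted p = 0.775). The line differences of the other 3 IRS1 probes lay between -0.073 and 0.0051, and none was called. Pigs of the same group differed more for IRS1 than for most transcripts, with a standard deviation within groups of 0.41 for the lead probe against a median of 0.26 over all tested probes.

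PIK3R1, the regulatory subunit of phosphoinositide 3-kinase, was lower in low than in high RFI pigs when both were fed the HF diet. In this group the signal ranged from -0.21 to 0.76, with a median of 0.19. In the high RFI group fed HF it ranged from 0.36 to 0.92, with a median of 0.55. Of the 12 low RFI pigs on the HF diet, 9 lay below the lowest high RFI pig on this diet and 7 lay below all 36 pigs of the other groups. On the LF diet the low RFI pigs ranged from 0.23 to 1.12 with a median of 0.61, and the high RFI pigs from 0.22 to 0.88 with a median of 0.63. The lines thus overlapped almost completely on the LF diet.

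In the order of their means, low RFI pigs on the HF diet stood at 0.22 ± 0.29 (SD, n = 12). The means of the other 3 groups were between 0.59 and 0.60, closer to each other than their SD of 0.17 to 0.28. On the HF diet, PIK3R1 was higher by 0.36 in high RFI pigs (SE 0.097, 95% interval 0.17 to 0.56, adjusted p = 0.0211), which is 1.29-fold. It was the only one of the 19 probes called in this comparison (5.26%), in which 6.39% of all tested probes were called and 2.36% were called higher. The corresponding difference on the LF diet was -0.0151 (SE 0.097, adjusted p = 0.961), and no member probe was called there, where 2.47% of all tested probes were called. With limma as with an unmoderated analysis of variance, 1 of the 19 passed an unadjusted p of 0.05 on the LF diet, against 16.5% of all tested probes.

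Within the low RFI line, PIK3R1 differed between the diets by -0.38 (HF minus LF, SE 0.097, adjusted p = 0.0719), a comparison that shares the low RFI pigs on the HF diet with the line comparison on that diet. Within the high RFI line, the diet difference was 0.0017 (SE 0.097, adjusted p = 0.9998). The interaction of line and diet for PIK3R1 was 0.38 (SE 0.14, 95% interval 0.10 to 0.65), with an unadjusted p of 0.00839 and an adjusted p of 0.999, so it did not pass the correction. The line difference on the HF diet was positive in 5 of 6 slides and on each of the 2 scan days, where it was 0.28 and 0.45. It lost its call when probes were not filtered on background, where it was 0.35 (adjusted p = 0.0758), and stayed called under the other 9 alternatives. Among the fibroblast markers, the collagens COL1A1 and COL1A2 were higher in the high RFI group fed HF, by 0.53 and 0.49 (adjusted p = 0.0313 and 0.0341). They were the 2 called of the 5 markers of this list, where 6.39% of all tested probes were called on this diet. The others were not called, with COL3A1 at 0.32, PDGFRA at 0.037 and DCN at -0.025 (adjusted p = 0.128, 0.917 and 0.886). The summed level of the 5 fibroblast markers ranged from 202.6 to 373.5 and from 260.3 to 392.8 in low and high RFI pigs fed HF, and from 212.7 to 396.9 and from 188.4 to 405.1 in low and high RFI pigs fed LF (linear units, where 1 is the geometric mean of the array). Their part in the PIK3R1 difference was not tested.

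**Figure D2:**
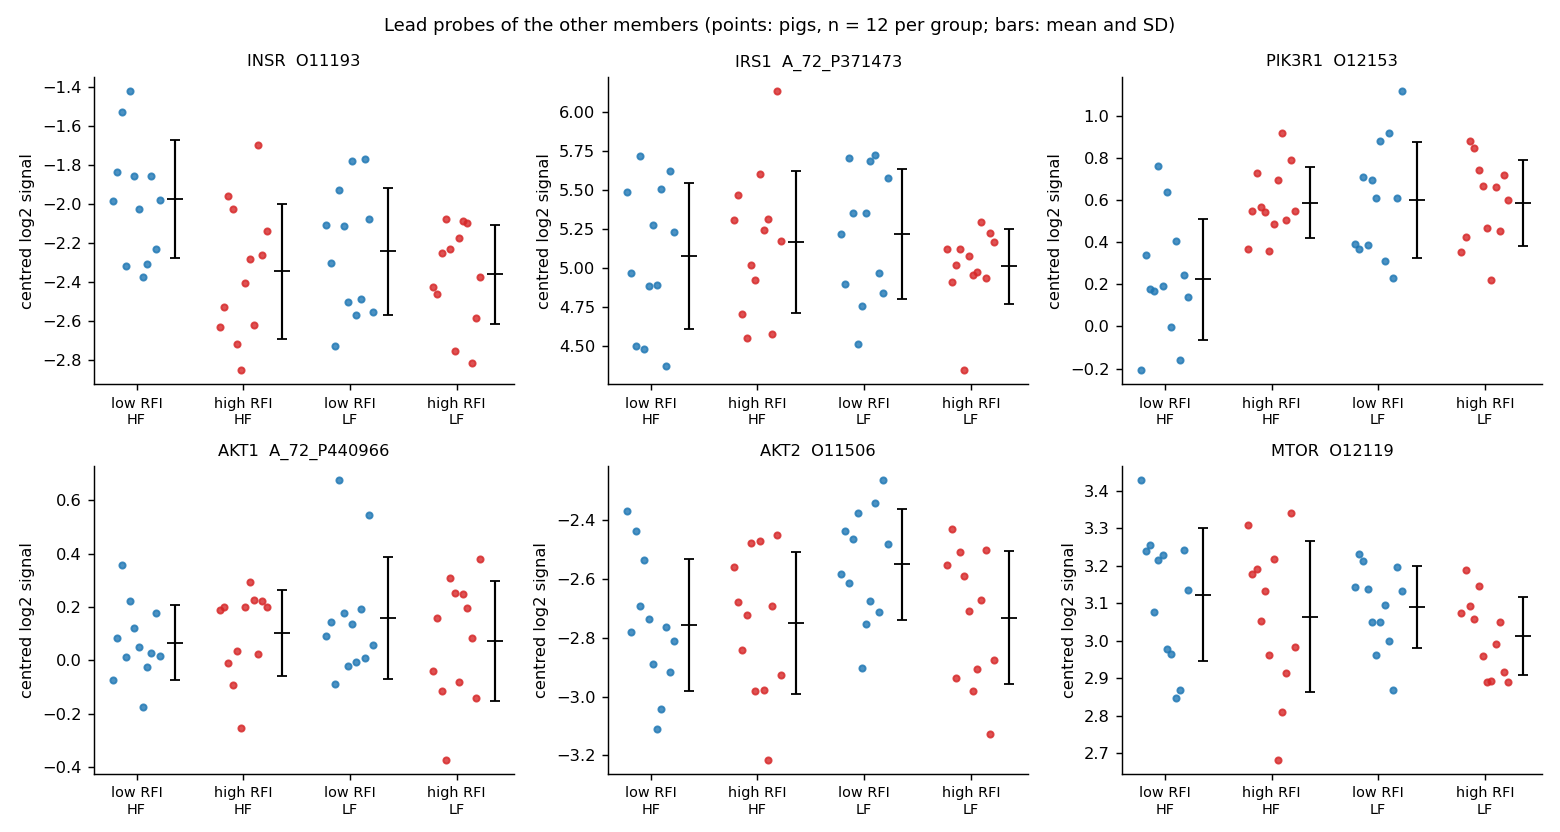
Centred log2 signal of the lead probes of INSR, IRS1, PIK3R1, AKT1, AKT2 and MTOR in each pig (points, blue for low RFI and red for high RFI), with the mean and SD of each group of 12. For PIK3R1, the low RFI pigs on the HF diet have a mean of 0.22 while the other groups have means of 0.59 to 0.60.

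Neither AKT1 nor AKT2 was called in any comparison. For AKT1, low RFI pigs ranged from -0.17 to 0.67 (median 0.072) and high RFI pigs from -0.37 to 0.38 (median 0.17). The line difference of AKT1 was -0.0245, with a 95% interval from -0.14 to 0.089, and turned to 0.0087 with the normexp background, so that it has no settled sign. For AKT2, the muscle isoform tied to glucose uptake, whose 1 probe is of unsettled strand, low RFI pigs ranged from -3.11 to -2.27 (median -2.68) and high RFI pigs from -3.22 to -2.43 (median -2.70). The line difference of AKT2 was -0.087 (95% interval -0.22 to 0.042, adjusted p = 0.365). In the low RFI line, AKT2 differed by -0.21 between the diets (HF minus LF) without passing the correction (SE 0.091, unadjusted p = 0.0275, adjusted p = 0.352).

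**Figure D3:**
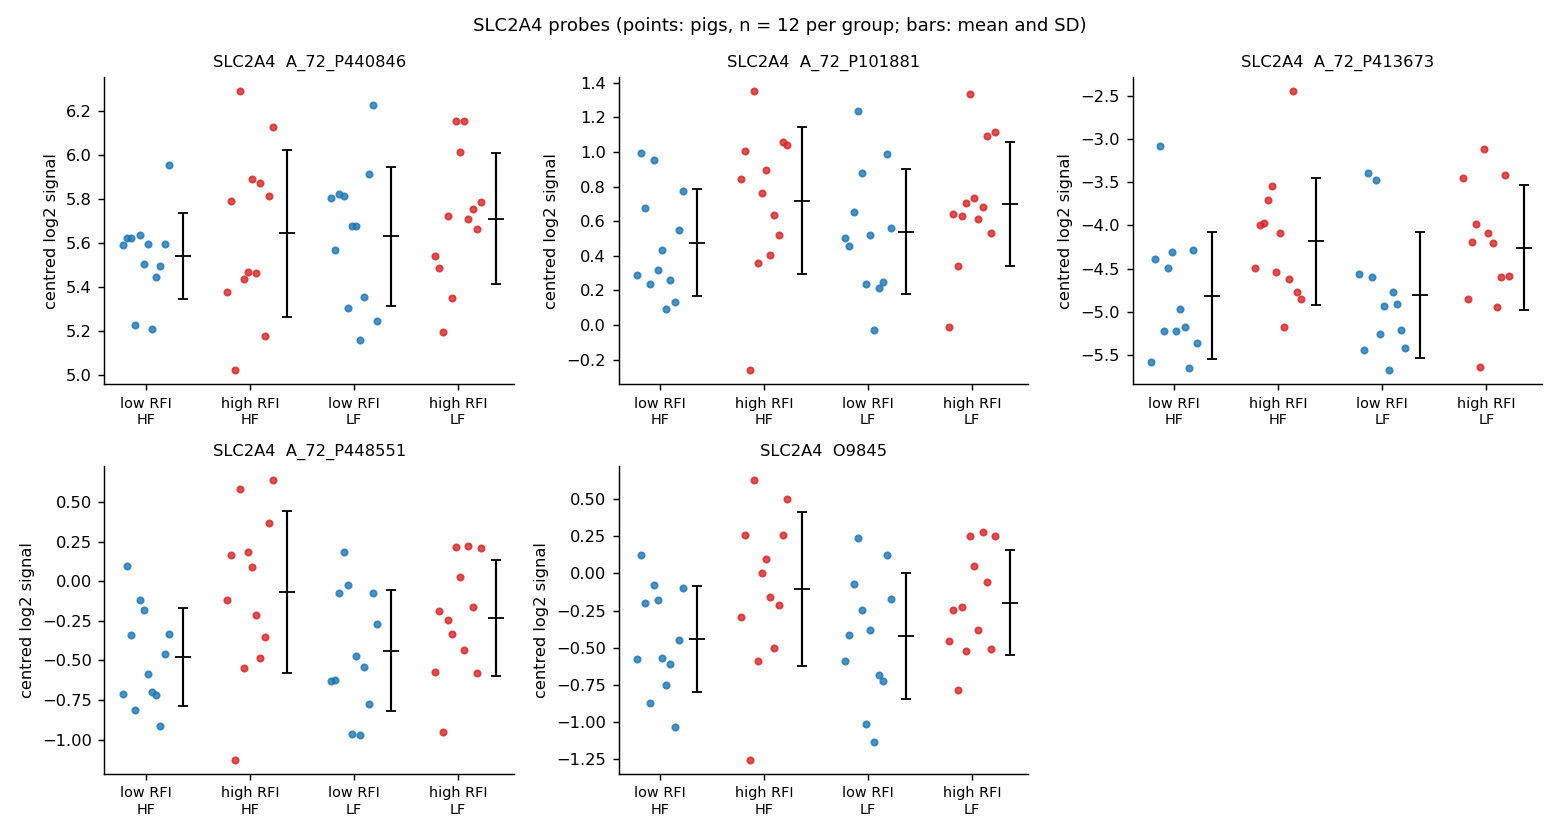
Centred log2 signal of the 5 SLC2A4 probes in each pig (points, blue for low RFI and red for high RFI), with the mean and SD of each group of 12; the probes A_72_P448551 and O9845 have the same sequence. High RFI means lie above low RFI means for every probe on both diets, with wide overlap.

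All 5 probes of SLC2A4, the gene of the insulin-regulated glucose transporter GLUT4, gave a positive line difference, but the size depended on the probe. With the lead probe, low RFI pigs ranged from 5.16 to 6.23 (median 5.60) and high RFI pigs from 5.02 to 6.29 (median 5.72). The lines overlapped over nearly their whole range, with a line difference of 0.091 (95% interval -0.083 to 0.27, adjusted p = 0.502). For A_72_P448551, low RFI pigs ranged from -0.97 to 0.19 (median -0.51) and high RFI pigs from -1.13 to 0.64 (median -0.18). The line difference of this probe was 0.31 (SE 0.11, adjusted p = 0.0535), and that of O9845, a second spot of the same sequence, was 0.28 (SE 0.12, adjusted p = 0.0962). A_72_P448551 passed the threshold with the normexp background, with slide as a block, in the deposited table and without replicate 10 of the high RFI group fed HF, where it gave 0.32 (adjusted p = 0.0474), and over its 10 alternatives the adjusted p ranged from 0.0413 to 0.112. With the 4 bright probes, the lowest high RFI pig was each time the same animal, replicate 3 on the HF diet.

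The called SLC2A4 probe was the dim A_72_P413673, which was well above background on 14 of 48 arrays, 4 of the low and 10 of the high RFI line. Low RFI pigs ranged from -5.68 to -3.08 (median -4.95) and high RFI pigs from -5.63 to -2.45 (median -4.19), with 19 of 24 high RFI pigs above the mean of the low RFI line. Its line difference was 0.59 (adjusted p = 0.0407), but most arrays of both lines gave no signal well above background, so its size is limited by the background. The probe passed the filter mainly through the high RFI line, and its call is no support for a difference in SLC2A4. It was called in 5 of 9 alternatives. With the normexp background the difference was 0.055 (adjusted p = 0.592), with quantile normalization 0.55 (adjusted p = 0.0634), with no filter on dim probes 0.59 (adjusted p = 0.0585), and without replicate 10 of the high RFI group fed HF, which held the highest value, it was 0.51 (adjusted p = 0.0633). After removal of the group means, this probe correlated with the other SLC2A4 probes at r = 0.055 to 0.17, whereas the other probes correlated with each other at 0.57 to 0.96.

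The mean of the 5 SLC2A4 probes, the dim one included, gave a line difference of 0.29 (SE 0.093, adjusted p = 0.0239). It holds the probe that passed the filter mainly through the high RFI line. It also counts the sequence of A_72_P448551 and O9845 once for each spot. This mean is therefore no support for a difference in SLC2A4. A mean of the 3 distinct sequences that were above background on all arrays, chosen after the values were seen, gave 0.20 (SE 0.092, adjusted p = 0.138). GLUT4 is also made by adipocytes. Of the 7 adipocyte markers measured, only FABP4 was called, higher in high RFI pigs (0.32, adjusted p = 0.0309), where 16.4% of all tested probes were called for the line. The others lay between -0.001 for LEP and 0.31 for SCD (adjusted p = 0.994 and 0.529), with ADIPOQ at 0.20 (adjusted p = 0.639). The summed level of the adipocyte markers ranged from 32.8 to 69.6 and from 34.8 to 112.3 in low and high RFI pigs fed HF, and from 28.3 to 99.6 and from 37.1 to 103.6 on the LF diet. Their part in the SLC2A4 values was not tested.

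MTOR, the kinase at the centre of both mTOR complexes, varied little between pigs. The lead probe (O12119) ranged from 2.85 to 3.43 in low RFI pigs (median 3.13) and from 2.68 to 3.34 in high RFI pigs (median 3.05). Its line difference was -0.068 (SE 0.046, adjusted p = 0.315), and the second probe gave -0.092 (SE 0.040, adjusted p = 0.107). Neither was called, and the 95% interval of the line difference for the lead probe was -0.16 to 0.024. The standard deviation within groups was 0.15, and 11.9% of all tested probes had a smaller one.

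**Figure D4:**
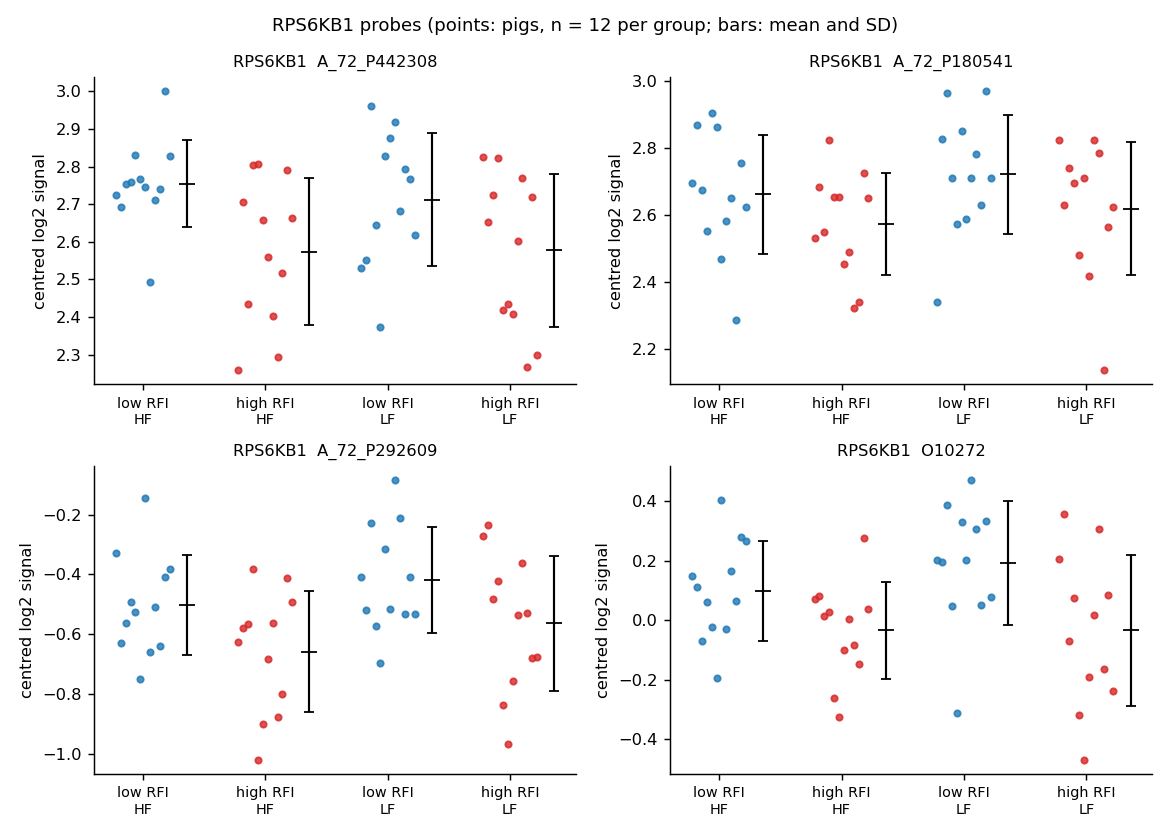
Centred log2 signal of the 4 RPS6KB1 probes in each pig (points, blue for low RFI and red for high RFI), with the mean and SD of each group of 12. For each probe the high RFI mean lies below the low RFI mean on both diets, with differences of -0.23 to -0.088.

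RPS6KB1, the S6 kinase that acts below mTOR complex 1, was lower in high RFI pigs with 2 of its 4 probes, and the other probes differed in the same direction without passing the test. With the lead probe (A_72_P442308), low RFI pigs fed HF ranged from 2.49 to 3.001 (median 2.75) and high RFI pigs from 2.26 to 2.81 (median 2.61). On the LF diet, low RFI pigs ranged from 2.37 to 2.96 (median 2.72) and high RFI pigs from 2.27 to 2.83 (median 2.63). The groups overlapped, and 18 of 24 high RFI pigs lay below the mean of the low RFI line. The line difference was -0.16 (SE 0.052, 95% interval -0.26 to -0.052, adjusted p = 0.0313), or 0.897-fold.

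The probe O10272 ranged from -0.31 to 0.47 in low RFI pigs (median 0.16) and from -0.47 to 0.36 in high RFI pigs (median 0.0096), and 20 of 24 high RFI pigs lay below the mean of the low RFI line. Its line difference was -0.18 (SE 0.059, adjusted p = 0.0296). The remaining probes gave -0.15 (A_72_P292609, adjusted p = 0.0612) and -0.095 (A_72_P180541, adjusted p = 0.208). The mean of the 4 probes gave -0.15 (SE 0.044, adjusted p = 0.0189). Of these probes, O10272 and A_72_P180541 are those whose strand is most in doubt, and the mean of the 4 probes includes both. The strand of the lead probe and of A_72_P292609 was not tested either.

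The RPS6KB1 difference had the same sign on both diets, where no probe passed the test alone. For the lead probe it was -0.18 on the HF diet (SE 0.073) and -0.13 on the LF diet (SE 0.073), with adjusted p of 0.120 and 0.365. For O10272 it was -0.13 and -0.23 (SE 0.083 each, adjusted p of 0.324 and 0.140). The interaction was -0.046 (SE 0.10) for the lead probe and 0.092 (SE 0.12) for O10272. The lead probe was lower in high RFI pigs within all 6 slides, and O10272 within 5 of 6. With the normexp background, the line differences of the lead probe and O10272 were -0.12 and -0.13 and were no longer called (adjusted p = 0.0864 and 0.0866), nor were they without a filter on dim probes (adjusted p = 0.111 and 0.129). The muscle fibre markers titin (TTN) and myosin MYH2 were lower in high RFI pigs, at -0.26 and -0.12 (adjusted p = 1.42e-05 and 0.0259). They were the 2 called of the 12 markers of this list, where 16.4% of all tested probes were called for the line. The marker MB went the other way, at 0.18 (adjusted p = 0.258), and the remaining fibre markers lay between -0.14 and -0.016 without a call. The summed level of the 12 fibre markers ranged from 9352 to 12610 in low RFI and from 8496 to 11220 in high RFI pigs fed HF, and from 8986 to 11770 and from 9257 to 11790 on the LF diet. Their part in the RPS6KB1 difference was not tested. Of the other cell type markers, CD14 and LYZ of 6 leucocyte markers and TEK of 6 endothelial markers were called higher in high RFI pigs, with line differences of 0.30, 1.5 and 0.24. The leucocyte markers PTPRC and CD3E went the other way, at -0.026 and -0.14, as did the endothelial markers PECAM1 and CDH5, at -0.065 and -0.15. The remaining leucocyte and endothelial markers, CD68, CD163, VWF, KDR and CLDN5, had differences of 0.047 to 0.52. None of these other markers was called. The 4 smooth muscle markers had line differences of -0.17 to 0.15 and the 2 blood markers of -0.015 and -0.0095, none of which passed the test.

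Between the diets, none of the 19 probes was called with limma, where 0.420% of all tested probes were called. Without adjustment 1 probe passed a p of 0.05, PIK3R1, with limma as with the analysis of variance, against 13.1% of all tested probes. Its diet difference was -0.19 (HF minus LF, SE 0.069, unadjusted p = 0.00896, adjusted p = 0.206). The diet differences of the other lead probes lay between -0.11 for AKT2 and 0.14 for INSR. For RPS6KB1 the 95% interval of the diet difference was -0.085 to 0.12, for MTOR -0.050 to 0.14, and for SLC2A4 -0.25 to 0.097, all for the lead probe. Within the low RFI line none was called either (0.199% of all tested probes), and 3 passed an unadjusted p of 0.05 by either test (11.6% of all tested probes), namely PIK3R1, AKT2 and INSR. The difference of INSR was 0.27 there (HF minus LF, SE 0.12, adjusted p = 0.391). Within the high RFI line, 0 of the 19 probes passed without adjustment by limma or by the analysis of variance, against 5.47% of all tested probes, and 0% of all tested probes were called with adjustment. The interaction of line and diet was likewise called for 0% of all tested probes, and of the 19 probes 1, PIK3R1, had an unadjusted p under 0.05 by either test, against 4.45% of all tested probes.

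Pigs with more of one member did not in general have more of the others. After removal of the group means, the 28 pairs of lead probes had a median absolute Pearson correlation of 0.12 over the 48 pigs, as a description without a test. The strongest pair was AKT2 with MTOR, with r = 0.69 and Spearman's rho = 0.68, while AKT2 correlated with the second MTOR probe at r = 0.43. The strand of the AKT2 probe is unsettled, so its correlations may not be those of the AKT2 mRNA. INSR correlated negatively with the lead probe of IRS1, with r = -0.45 and rho = -0.44. These values share the arrays and their centring. Among probes of 1 gene, correlations ranged from 0.70 to 0.94 for IRS1, reached 0.70 for the 2 MTOR probes, and ranged from 0.23 to 0.87 for RPS6KB1. The RPS6KB1 probes O10272 and A_72_P292609 formed the pair at 0.87, and A_72_P180541 correlated with both at 0.23.

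**Figure D5:**
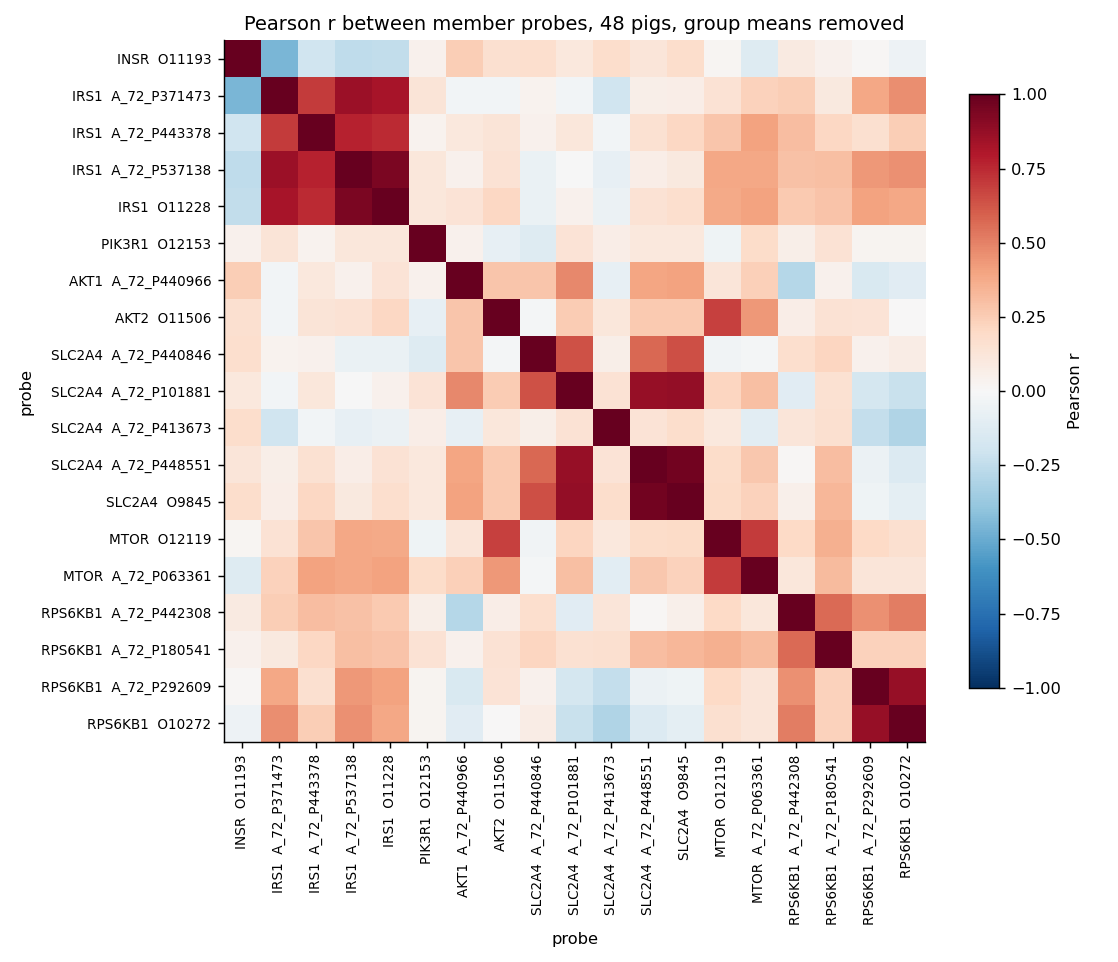
Pearson correlation between the 19 probes over 48 pigs after the mean of each group was removed (red positive, blue negative). The IRS1 probes form a block with r of 0.70 to 0.94, 4 of the 5 SLC2A4 probes form another, and the AKT2 probe correlates with the MTOR probe O12119 at 0.69.

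Among 17770 probes with a known symbol and no missing value, the transcripts most like the lead probe of each member were ranked. The ranking was by Pearson correlation of the residual pattern over the 48 pigs. The lead probe of RPS6KB1 had the closest, with the ubiquitin protease USP7 at r = 0.84, the kinase PKN2 at 0.76 and the RNA helicase DDX1 at 0.73. This probe correlated with the other RPS6KB1 probes at 0.46 to 0.56, so the likeness is that of the probe and may not be that of the gene. For IRS1 they were TRPM7 (0.70), CEP57L1 and BIRC3 (0.67 each). PIK3R1 came nearest to EIF3L (0.65), KSR1 (0.65) and RPL13A (0.63), the first a subunit of a translation initiation factor and the last a ribosomal protein. For SLC2A4 they were ATPIF1, the inhibitor of the mitochondrial ATP synthase (0.66), CGGBP1 (0.61) and RPL26L1 (0.59). MTOR was nearest to NEURL4 (0.69), the AKT2 probe of unsettled strand (0.69) and SENP3 (0.65). That AKT2 probe was nearest to MTOR (0.69), SMG5 (0.61) and OIT3 (0.59). AKT1 was nearest to RUSC1 (0.69), FLAD1 and ATP5D (0.68 each), and INSR to GBF1 (0.58), ENAH (0.57) and PLEC (0.54).

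The other genes of the pathway were read from a list of 102 genes, of which 74 were measured by 177 probes. Of these probes, 16 were called for the line (9.04%, against 16.4% of all tested probes), 2 higher and 14 lower in high RFI pigs, in 13 genes. The median line difference was -0.052 over the list and -0.029 over all tested probes. No probe of the receptor and adaptor genes was called for the line, while 8 of 29 passed an unadjusted p of 0.05 with limma and 7 with the analysis of variance. No probe of the mTOR complex genes was called, while 3 of 8 passed without adjustment by either test. The share of all tested probes that passed without adjustment is not given for the line, but it is no smaller than the 16.4% called. The counts without adjustment are therefore not read as many or few. A list of genes read around the output of mTOR complex 1, with translation factors, S6 kinase substrates and the p90 kinases RPS6KA1 and RPS6KA3, held 9 called probes of 35 (25.7%), 2 higher and 7 lower. The p90 kinases are driven by ERK and are not targets of mTOR complex 1, and without them 7 of 31 probes were called (22.6%), 1 higher and 6 lower.

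Of this list, the p90 kinase RPS6KA1 and 1 probe of the translation inhibitor PDCD4 were higher in high RFI pigs. The other p90 kinase, RPS6KA3, named after its values were seen, was lower. Its probe A_72_P135321 was called at -0.16 (adjusted p = 0.0441), and its others gave -0.14 and -0.13 (adjusted p = 0.179 and 0.186). RPS6KA1 averaged 0.12 ± 0.53 in high and -0.29 ± 0.36 in low RFI pigs (SD, 24 pigs per line), with a line difference of 0.41 (SE 0.13, adjusted p = 0.0216), and lost its call with no filter on dim probes (adjusted p = 0.0529). The PDCD4 probe differed by 0.32 (SE 0.090, adjusted p = 0.0121), but it was the only one of 5 called, and the 5 ranged from -0.058 to 0.32. The phosphatidate phosphatase LPIN1 was lower in high RFI pigs, with a line difference of -0.37 (SE 0.11, adjusted p = 0.0158) for the 1 called probe of 7, all of them negative. EIF4B, a translation initiation factor that S6 kinases phosphorylate, was lower with a line difference of -0.23 (SE 0.061, adjusted p = 0.00683). The ribosomal protein RPS6, the classical substrate of RPS6KB1, was lower with 2 probes, with line differences of -0.17 and -0.15 (adjusted p = 0.00391 and 0.00336). It was named after its values were seen, and a link between its level and that of RPS6KB1 was not tested.

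Among genes of GLUT4 traffic, sortilin (SORT1), which sorts GLUT4 into its storage vesicles, was lower in high RFI pigs with all 3 probes, with line differences of -0.29 to -0.20. Its first probe averaged 2.43 ± 0.30 in high and 2.72 ± 0.24 in low RFI pigs (adjusted p = 0.00757). TSC1, the partner of TSC2, was chosen after its values were seen: its probe O14405 was lower in high RFI pigs, with -0.18 (SE 0.058, adjusted p = 0.0278), while its other probe gave -0.12 (adjusted p = 0.110). For the diet, 2 probes of the list were called (1.13%, against 0.420% of all tested probes), both of the adaptor and ubiquitin ligase CBL, with diet differences of -0.22 (adjusted p = 0.0371) and -0.21 (adjusted p = 0.0338). The first was called in 6 of 10 alternatives, with an adjusted p of up to 0.176, and neither was called with quantile normalization or with no filter on dim probes. No probe of the list was called for the interaction. For it, 5 of 177 probes passed an unadjusted p of 0.05 with limma and 6 with the analysis of variance, against 4.45% of all tested probes with limma.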

How the data were processed

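RNA of longissimus muscle was hybridised on the Agilent-037880/INRA 60 K microarray, with 12 pigs in each of 4 groups of line and diet. The authors deposited spot intensities from Agilent Feature Extraction 10.7.3.1, background-subtracted, and a table of log2 values over 34472 probes (R 2.10.0 in the submitters' processing notes), which equalled log2 median spot signals centred on the median of their array and served as an alternative. It holds 17 of the 19 probes.

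Control and outlier spots were left out, spots of 1 probe were averaged, and the log2 of the processed intensity was centred by subtracting the mean of an array over the kept probes, those well above background on 12 or more arrays. The 4 group means were fitted over 42125 probes with limma 3.58.1 (R 4.3.3), with Benjamini-Hochberg adjustment at 0.05 over all of them, and a probe is called when it passes. The step was tested on simulated data. The number of arrays limits the precision.

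The members, the pathway and marker lists and the alternatives were chosen with earlier results of these data known. Named were all members, every called member probe, up to 3 pathway genes per direction and contrast, and the 3 transcripts most like each member; exceptions are stated. The sequence and single value of 1 SLC2A4 probe are not reported here.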

Additional observations from a re-analysis of the deposited data

How the results depend on the processing

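Scaling on the 75th percentile, quantile normalization, normexp background (offset 50), no filter on dim probes, outlier spots kept, slide or scan day as a block, the deposited table, an unmoderated analysis of variance, the mean of the probes of a gene, and leaving out replicate 10 of the high RFI pigs on the HF diet (added after seeing the data) were tried. Of 349 alternative values with a test for 34 single differences, 322 kept their sign and their side of the threshold, 14 lost and 9 gained a call, and 4 changed sign, all of them uncalled: AKT1 for the line with normexp (0.0087), and with the mean of the probes the diet differences of IRS1 (-0.0028), SLC2A4 (0.0055) and RPS6KB1 (-0.042). Many of these differences were uncalled and far from the threshold, where a change of side was unlikely. Of the member probes called for the line, the RPS6KB1 probe A_72_P442308 kept its call in 9 of 11 alternatives and O10272 in 8 of 10. The dim SLC2A4 probe kept it in 5 of 9. Within slide 1 alone, the RPS6KB1 probe O10272 gave a line difference of 0.014. The 3 member probes called for the line became 1 with normexp, 0 without the filter on dim probes and 5 with slide as a block, and with quantile normalization they were INSR and 2 RPS6KB1 probes. On the HF diet, the 1 member probe called for the line became 0 without that filter and 2 without replicate 10, the second being INSR. For the pathway list, 16 probes called for the line became 8 without the filter and 27 with slide as a block, and the 2 called for the diet became 1 with 75th percentile scaling, 0 with quantile normalization, 1 with normexp and 0 without the filter. Over all tested probes, 6919 called for the line became 3874 without the filter, and 177 called for the diet became 73 with normexp, 0 without the filter and 359 with slide as a block. Without the filter 60305 probes were tested, so adjustment was over more probes; the other causes were not tested. Dim probes such as A_72_P413673 of SLC2A4 are limited by their signal over background. No paired analysis was possible because the labels give every pig the same replicate number, which pairs none of them.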

Other observations

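A probe outside the rule for the members, A_72_P382643, carries a cluster name in place of a symbol, and its description likens the cluster to mouse insulin receptor substrate 2 (IRS2), the second adaptor of the insulin receptor. It was looked at because no IRS2 probe met the rule, and its values are a description of this probe only.
A_72_P382643: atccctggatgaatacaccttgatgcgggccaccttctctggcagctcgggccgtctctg

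It was well above background on all 48 arrays. Low RFI pigs ranged from -1.83 to -1.16 (median -1.49) and high RFI pigs from -2.01 to -1.31 (median -1.70). The lines overlapped, with a line difference of -0.22 (SE 0.054, adjusted p = 0.00393 with limma over all tested probes), which was -0.26 on the HF diet (adjusted p = 0.0352) and -0.18 on the LF diet (adjusted p = 0.198). Under the alternatives, the line difference ranged from -0.23 to -0.13 and the adjusted p from 4.73e-04 to 0.0166. The diet difference was -0.012 (adjusted p = 0.962).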
